A study of Homo sapiens with 20 samples.

Results

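Silencing of EHMT1 was examined in LNCaP, a human prostate adenocarcinoma line that responds to androgens. The samples were the 2 treated with an siRNA pool against EHMT1 (siEHMT1) and the 2 treated with a nontarget control pool (siNTC), taken from the 20 samples of the series by the group named in their titles. Both pools were used at 20 nmol/L for 2 days, and total RNA went into a strand-preserving library kit. The other 16 samples came from 4 LNCaP lines with doxycycline-inducible EHMT1 (WT, K450R, K451R and the double mutant) given vehicle (Veh) or 0.25 µg/mL doxycycline (Dox), and are used here only to set the genes of the siRNA comparison beside the opposite manipulation. With a single pool against EHMT1, effects of losing EHMT1 and effects of the pool on other transcripts cannot be told apart. Nothing in the labels says that the samples of a group were separate cultures, so the p-values measure the spread between these samples, which may be technical.

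EHMT1 (also called GLP) is a lysine methyltransferase that works as a heterodimer with EHMT2 (G9a). Their best-known substrate is lysine 9 of histone H3 in euchromatin, and its dimethylation marks repressed genes. Both enzymes also act as coregulators that repress or activate transcription, depending on the gene. In bulk RNA, fewer cells of a kind and less RNA per cell cannot be told apart.

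The total counts were 9864743 and 5593400 with siNTC and 9453020 and 12438006 with siEHMT1, so 3 counts, taken as the detection floor, stood for 0.241 to 0.536 CPM by raw library size. CPM is the count scaled to a fixed library total. Levels of single genes below are CPM scaled further by TMM normalization, whereas this floor and the summed marker levels use the raw totals. Of 57773 genes in the table, 14532 passed edgeR's filter on low counts and were tested. The luminal prostate markers were all present and none of the 10 had an adjusted p under 0.05. Their summed level by raw library size was 6977 and 6100 CPM with siNTC and 6905 and 6758 CPM with siEHMT1. The basal markers KRT5 and TP63, the endothelial markers KDR and CDH5 and the leukocyte markers PTPRC and CD3E had 0 counts in every sample. Other basal markers had counts: KRT14 had 3 and 4 with siNTC and 7 and 6 with siEHMT1. The 7 basal markers summed to 25.2 and 20.0 CPM and then 22.1 and 27.4 CPM, and the 1 tested had a log2 fold change of 0.09. The leukocyte markers summed to 0.203 and 0.536 CPM and then 0.635 and 0.402 CPM. VWF, the only endothelial marker found with counts, had 98 and 39 with siNTC and 153 and 196 with siEHMT1 (adjusted p = 0.0741). Of the stromal list, ACTA2 had 39 and 19 and then 79 and 87 (log2 fold change 1.03, adjusted p = 0.166), COL1A1 had 183 and 78 and then 147 and 218 (−0.0019, adjusted p = 0.999) and PDGFRB had 14 and 11 and then 11 and 15 (−0.48, adjusted p = 0.804). COL3A1 did not pass the filter, and DES, LUM, DCN and COL1A2 had 0. The part of these markers in the results was not tested. The second siNTC sample stood apart: AC010970.2, a pseudogene row that resembles ribosomal RNA, took 8.39% of its counts (95% Wilson interval 8.37 to 8.41%), against 0.0311 to 0.826% in the other samples. Such intervals and floors cover counting error only.

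EHMT1 mRNA (ENSG00000181090, chr9:140513444-140764468 on GRCh37) fell in the silenced samples. It was at 87.8 and 83.6 CPM with siNTC and at 29.2 and 30.7 CPM with siEHMT1, 2.86-fold lower (log2 fold change −1.51, SE 0.11, adjusted p = 1.48e-07, edgeR quasi-likelihood test with Benjamini-Hochberg adjustment). The partner gene EHMT2 was at 60.5 and 63.6 CPM with siNTC and at 59.5 and 56.8 CPM with siEHMT1, and although both silenced samples lay below both controls, the difference did not pass (log2 fold change −0.09, SE 0.10, adjusted p = 0.831). Among 18 genes of the EHMT1 complex and its partners, EHMT1 itself was the only member past an adjusted p of 0.05. ATF7IP, a cofactor of the H3K9 methyltransferase SETDB1, showed a log2 fold change of −0.36 (SE 0.12, adjusted p = 0.282). YAF2 went the other way, at 0.59 (SE 0.28, adjusted p = 0.519). The median of the list was −0.08, beside −0.0021 over all genes tested. None of 16 other H3K9 writers and erasers passed even an unadjusted p of 0.05.

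At an adjusted p under 0.05, 9 genes rose (0.0619% of those tested) and 10 fell (0.0688%), EHMT1 included. Of the 9 that rose, 8 were protein coding, and they encode a receptor, metabolic enzymes and secreted or surface proteins of epithelial cells. Those that fell were more highly expressed, with a median of the mean counts of 790.1, beside 179 for those that rose. The median change was 1.11 on the log2 scale for the genes that rose and −0.61 for those that fell. In all 19, the siNTC and siEHMT1 samples did not overlap, as in 39.7% of all genes tested. The counts of calls were larger with any sample left out: without the first or second siNTC sample 23 or 20 genes rose and 57 or 18 fell, and without the first or second siEHMT1 sample 41 or 28 rose and 19 or 82 fell. In those fits the sample that stands alone in its group is assumed to vary like the other group.

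**Figure D1:**
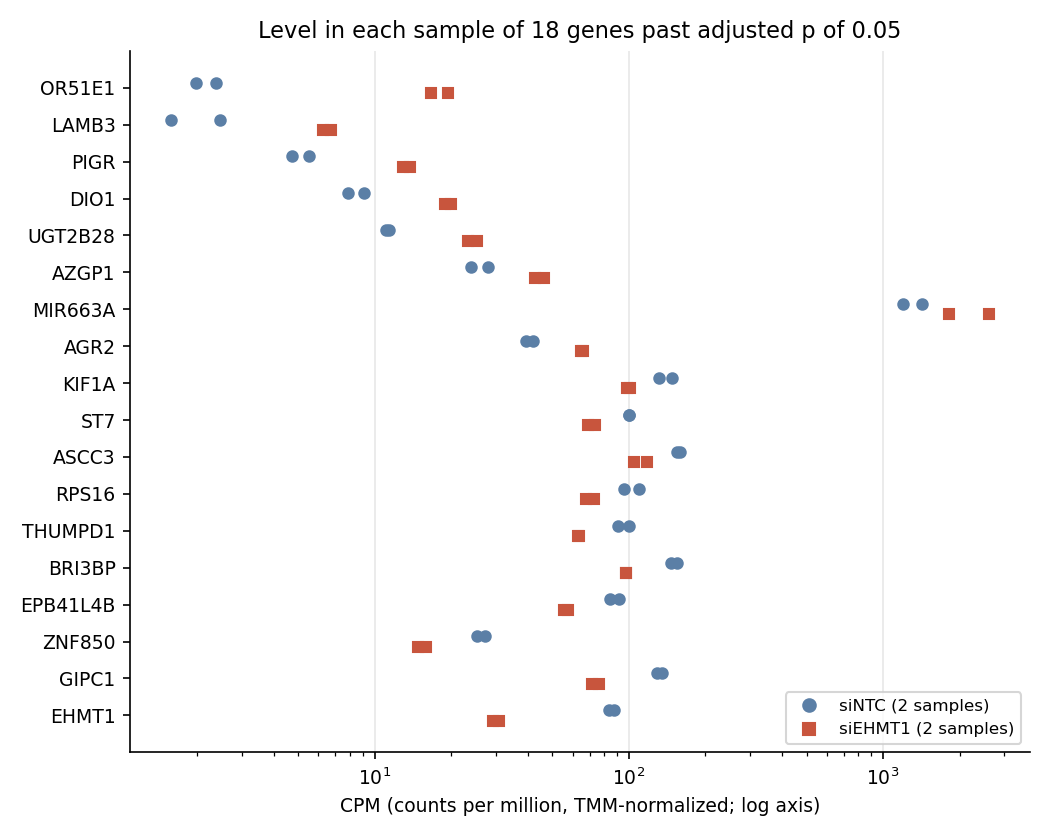
CPM on a log axis (horizontal) of 18 of the 19 genes with an adjusted p under 0.05, ordered by log2 fold change, with each of the 2 siNTC samples as a circle and each of the 2 siEHMT1 samples as a square. In no gene do squares and circles overlap: OR51E1 goes from 1.98 and 2.37 CPM in the controls to 19.4 and 16.7 CPM, and EHMT1 from 87.8 and 83.6 CPM to 29.2 and 30.7 CPM.

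OR51E1 (ENSG00000180785, chr11:4664650-4676718 on GRCh37), an odorant receptor family member expressed in prostate, showed the largest change of the called genes. It was at 1.98 and 2.37 CPM with siNTC (21 and 12 counts) and at 19.4 and 16.7 CPM with siEHMT1 (186 and 209 counts). The rise was 8.41-fold (log2 fold change 3.07, SE 0.24, adjusted p = 4.26e-07). OR51E2, its paralogue and neighbour in the same receptor subfamily, had 30 and 14 counts in the controls and 54 and 59 after silencing, a log2 fold change of 0.87 that did not pass (adjusted p = 0.336).

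Some of the other genes that rose encode enzymes of hormone and steroid metabolism. DIO1 (chr1:54356912-54376759), a deiodinase that converts thyroid hormone to its active form, was at 7.84 and 9.09 CPM with siNTC and at 18.9 and 20.0 CPM with siEHMT1 (2.32-fold, adjusted p = 0.00414). UGT2B28 (chr4:70146193-70160768), which conjugates steroids with glucuronic acid, was at 11.4 and 11.1 CPM with siNTC and at 23.3 and 25.2 CPM with siEHMT1 (2.15-fold, adjusted p = 0.00318).

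The rest of the genes that rose encode secreted proteins, an epithelial transport receptor, a basement membrane chain and a noncoding transcript. PIGR, the receptor that carries polymeric immunoglobulins across epithelia, was at 4.72 and 5.53 CPM with siNTC and at 12.9 and 13.7 CPM with siEHMT1 (2.63-fold, adjusted p = 0.00554). AGR2, a disulfide isomerase of mucus-secreting cells, was at 39.5 and 41.9 CPM and then at 65.8 and 65.1 CPM (1.61-fold, adjusted p = 0.00554), and AZGP1, a secreted zinc-binding glycoprotein, was at 27.9 and 23.9 CPM and then at 46.1 and 42.8 CPM (1.71-fold, adjusted p = 0.00860). LAMB3, the beta chain of laminin-332, had only 26 and 8 counts in the controls and 60 and 84 after silencing (log2 fold change 1.61, SE 0.32, adjusted p = 0.0443), and it lost the call without the second siNTC sample (adjusted p over all alternatives 0.00235 to 0.266). The row with the symbol MIR663A, whose identifier ENSG00000227195 belongs to a long noncoding host transcript on chromosome 20, was at 1423 and 1197 CPM with siNTC and at 1821 and 2608 CPM with siEHMT1 (log2 fold change 0.76, adjusted p = 0.0252). Without the second siEHMT1 sample its log2 fold change was 0.48 and the adjusted p 0.105, so that call was lost without that sample, as it was with DESeq2.

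The genes that fell changed by less than EHMT1 itself. GIPC1 (chr19:14588572-14606961), a PDZ-domain adaptor that traffics receptors, was at 135.5 and 128.9 CPM with siNTC and at 76.2 and 71.7 CPM with siEHMT1 (1.79-fold lower, adjusted p = 0.000102). BRI3BP (chr12:125478191-125515777), a membrane protein named for its binding to BRI3, was at 146.7 and 154.7 CPM and then at 97.6 and 97.1 CPM (1.55-fold lower, adjusted p = 0.00318). EPB41L4B (chr9:111934254-112083339), a FERM-domain protein, was at 84.4 and 91.5 CPM and then at 57.4 and 55.4 CPM (1.56-fold lower, adjusted p = 0.00554). GIPC1, BRI3BP and EPB41L4B, with OR51E1, UGT2B28, DIO1, AGR2, PIGR, AZGP1 and EHMT1, were among 11 genes that kept an adjusted p under 0.05 in every alternative that gave one.

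THUMPD1, an adaptor for acetylation of tRNA, fell by 0.59 on the log2 scale (adjusted p = 0.0113), and RPS16, a protein of the small ribosomal subunit, fell by 0.55 (adjusted p = 0.0306). RPS16 has processed pseudogenes of similar sequence, so reads may have been divided among them. ASCC3, a helicase of alkylation repair and of rescue of stalled ribosomes, showed a log2 fold change of −0.50 (adjusted p = 0.0324), ZNF850, a zinc-finger protein, of −0.78 (adjusted p = 0.0435), KIF1A, a kinesin motor of vesicle transport, of −0.49 (adjusted p = 0.0439) and ST7, known as suppression of tumorigenicity 7, of −0.49 (adjusted p = 0.0443). The calls of ASCC3, KIF1A, RPS16, ST7 and ZNF850 were lost with upper-quartile normalization, and leaving out a single sample also took each of them over the threshold, with adjusted p of at most 0.194 over all alternatives. ST7 lost its call without the second sample of either group, ASCC3 without the first siEHMT1 sample, RPS16 and ZNF850 without the first siNTC sample, and KIF1A without the first sample of either group. Annotated genes on the opposite strand overlap EHMT1, GIPC1, BRI3BP, EPB41L4B, THUMPD1, ASCC3, ZNF850, ST7, AZGP1 and MIR663A. The strand setting of the counting is not known here, so reads of such partners cannot be told apart.

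The sequence upstream of the called genes was examined for CpG, the dinucleotide that is enriched in the promoters of broadly expressed genes. The 250 bases before the transcription start are printed for the 5 called genes with the smallest p that have an entry in the RefSeq promoter table (GRCh38.p14), because they let the CpG content be read directly. Letters are lower case with every CG in capitals, and all are 5′ to 3′ on the strand of the gene. EHMT1 lies at chr9:137618755-137619004 on the plus strand with 43 CpG, GIPC1 at chr19:14496128-14496377 on the minus strand with 31, and BRI3BP at chr12:124993395-124993644 on the plus strand with 26.
EHMT1: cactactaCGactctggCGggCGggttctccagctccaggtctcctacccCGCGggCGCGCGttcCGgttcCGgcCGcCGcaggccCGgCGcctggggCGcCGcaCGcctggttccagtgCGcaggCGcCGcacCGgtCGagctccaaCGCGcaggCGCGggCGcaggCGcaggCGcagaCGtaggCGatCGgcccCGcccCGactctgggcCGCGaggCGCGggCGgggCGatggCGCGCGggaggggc
GIPC1: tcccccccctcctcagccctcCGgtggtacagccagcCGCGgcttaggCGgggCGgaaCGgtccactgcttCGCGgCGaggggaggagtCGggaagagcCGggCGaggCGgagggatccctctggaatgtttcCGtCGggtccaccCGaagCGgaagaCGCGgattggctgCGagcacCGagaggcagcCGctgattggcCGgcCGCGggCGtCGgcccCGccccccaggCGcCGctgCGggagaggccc
BRI3BP: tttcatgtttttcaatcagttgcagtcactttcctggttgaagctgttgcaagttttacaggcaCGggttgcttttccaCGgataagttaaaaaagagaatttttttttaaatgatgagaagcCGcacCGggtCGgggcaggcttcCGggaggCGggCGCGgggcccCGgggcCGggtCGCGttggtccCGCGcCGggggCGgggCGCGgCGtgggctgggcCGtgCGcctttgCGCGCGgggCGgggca
The 2 genes of the 5 that rose are OR51E1 at chr11:4643732-4643981 on the plus strand with 2 CpG and DIO1 at chr1:53893937-53894186 on the plus strand with 2.
OR51E1: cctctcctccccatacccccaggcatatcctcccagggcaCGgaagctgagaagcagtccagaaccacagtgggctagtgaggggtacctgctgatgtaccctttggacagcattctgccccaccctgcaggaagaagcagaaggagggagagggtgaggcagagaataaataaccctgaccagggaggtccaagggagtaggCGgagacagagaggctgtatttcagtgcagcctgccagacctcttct
DIO1: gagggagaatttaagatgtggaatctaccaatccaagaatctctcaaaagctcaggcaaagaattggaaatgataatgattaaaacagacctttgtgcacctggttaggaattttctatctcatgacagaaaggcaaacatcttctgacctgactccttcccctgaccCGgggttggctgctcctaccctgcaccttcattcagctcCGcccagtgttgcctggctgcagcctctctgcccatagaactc

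For all genes tested, the same count was made in the 250 bases before the annotated gene start on GRCh37, the build of the files, where 98.1% had a value. Starts differ between annotations, so single genes can differ from the counts above. The genes that rose held 1 to 17 CpG with a median of 3, and 8 of 9 held 10 or fewer; MIR663A was the exception. The genes that fell held 3 to 40 with a median of 22, and 2 of 10, KIF1A and THUMPD1, held 10 or fewer. Over all genes tested the median was 17 and 32.3% held 10 or fewer. The limit of 10 was chosen after the values were seen, and these counts are given as a description.

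**Figure D2:**
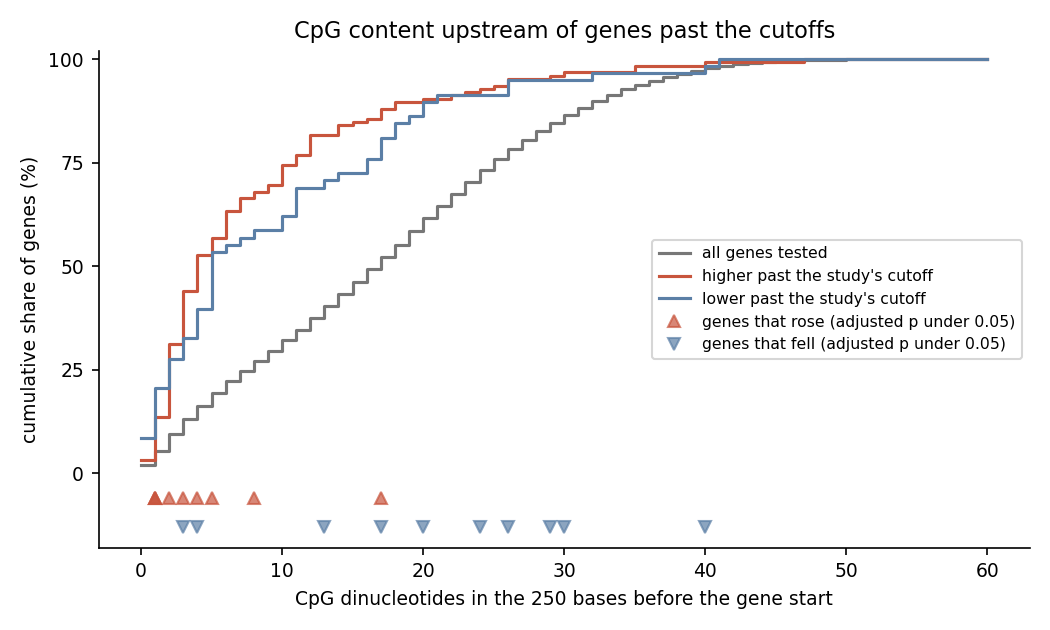
Cumulative share of genes (vertical, %) by the number of CpG dinucleotides in the 250 bases before the gene start (horizontal), for all genes tested and those higher or lower with siEHMT1 past the 2-fold cutoff, with triangles for the 9 genes that rose and the 10 that fell at an adjusted p under 0.05. At 10 CpG or fewer the curves stand at 32.3% of all genes, 74.4% of those higher and 62.1% of those lower, and 8 of 9 upward triangles but 2 of 10 downward ones lie there. Among tested genes with a mean count under 100, which have no curve, the share was 46%. Of the genes past the cutoff, 53 higher and 21 lower ones passed the filter on low counts only through 1 group. The part of expression level in these shares was not tested.

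At the cutoff used in the study, a change of at least 2-fold with an unadjusted p under 0.05, 127 genes were higher with siEHMT1 (0.874% of those tested) and 59 lower (0.406%). Most were weakly expressed, and 53 of the higher genes passed the filter only through the siEHMT1 samples and 21 of the lower only through siNTC. The counts were 330 and 186 without the first siEHMT1 sample, 143 and 155 without the second, and 109 and 38 without the second siNTC sample. The median of the mean counts was 16 for those higher and 15.2 for those lower, beside 187.8 over all genes tested, and 65.4% and 71.2% had a mean count under 20. Protein-coding genes made up 57.6% of the higher and 36.2% of the lower genes, beside 81.7% of all genes tested. Among the lower genes, 23 were processed pseudogenes and 21 protein coding. The protein-coding genes alone held 10 or fewer CpG before their start in 50 of 72 higher genes (69.4%) and in 9 of 21 lower genes (42.9%), beside 25.7% of all coding genes tested and 34.3% of those with a mean count under 100.

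**Figure D3:**
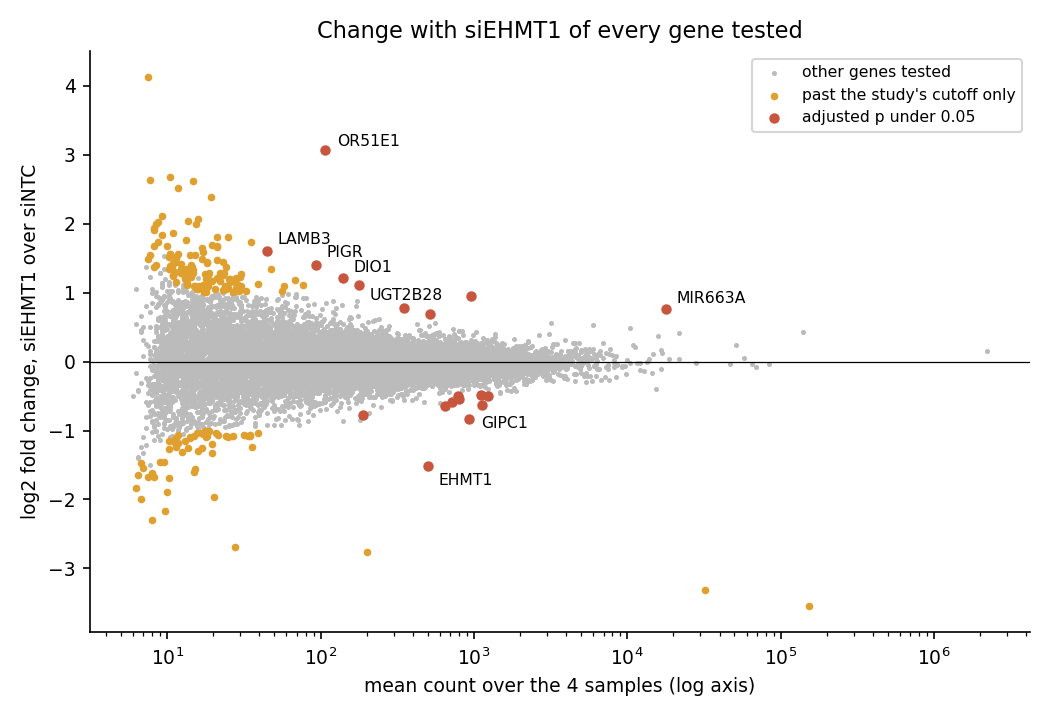
Log2 fold change, siEHMT1 over siNTC (vertical), against the mean count over the 4 samples on a log axis (horizontal) for the 14532 genes tested, with genes past an adjusted p of 0.05 in red and those past the 2-fold cutoff only in orange. Most orange points lie at mean counts under 20, the 19 red points lie at mean counts of 44.5 or more, and the 2 orange points far right and low are the pseudogene rows that resemble ribosomal RNA.

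Among the 38 higher genes without an adjusted call that had a mean count of at least 20 and no overlap between groups, the 10 with the largest changes had log2 fold changes of 1.29 to 1.80. SH3TC2, a protein of Schwann cell endocytosis, led them with 14 and 3 counts in the controls and 33 and 50 after silencing (log2 fold change 1.80, SE 0.42, adjusted p = 0.104). MYH15, a myosin heavy chain, had 8 and 6 counts and then 29 and 42 (log2 fold change 1.80, adjusted p = 0.132). SLC2A10, a facilitative sugar transporter, had 8 and 7 counts and then 36 and 33 (log2 fold change 1.68, adjusted p = 0.188). The list also held RFX6, TTR, TRIM54, CYP3A5, LINC01125 and the rows RP11-290D2.6 and RP11-390F4.2.

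The 12 lower genes that met the same rule were led by RNU2-6P, a U2 small nuclear RNA copy, and ZNF208. ZNF208 had 45 and 43 counts in the controls and 28 and 28 after silencing (log2 fold change −1.25, adjusted p = 0.194). DHRS2, a dehydrogenase of the short-chain family, had 60 and 24 counts and then 29 and 26 (log2 fold change −1.06, adjusted p = 0.233). CTD-2162K18.4, a noncoding row that lies directly beside ZNF850 on chromosome 19, had 60 and 24 counts and then 24 and 31 (log2 fold change −1.08, adjusted p = 0.215). PCDHGA5 shares its exons with the rest of the protocadherin gamma cluster, and EI24P2, PTMAP3, LDHBP2, FCF1P2 and CTD-2272G21.2 are pseudogene rows, so the counts of all 6 are uncertain. None of these genes passed an adjusted p of 0.05.

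Genes of gut and liver lineage were assembled into a list of 27 with these results already known, so its direction is no independent evidence. Of 11 members tested, 2 (DIO1 and PIGR) rose, beside 0.0619% of all genes tested. At an unadjusted p under 0.05, 7 were higher and 0 lower, beside 4.46% of all genes tested higher and 5.09% lower. FABP6 passed the filter only through the siEHMT1 samples and could only count as higher. Without it 6 of 10 were higher and 0 lower, and the median was 1.16 on the log2 scale. RFX6, a transcription factor of gut and pancreatic endocrine cells, had 15 and 9 counts in the controls and 42 and 74 after silencing (log2 fold change 1.73, SE 0.36, adjusted p = 0.0628). CYP3A5, a drug- and steroid-oxidizing cytochrome, had 28 and 13 counts and then 58 and 91 (log2 fold change 1.35, adjusted p = 0.0741), and MAT1A, the liver form of methionine adenosyltransferase, 35 and 22 and then 92 and 82 (log2 fold change 1.10, adjusted p = 0.158).

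Apart from RFX6, several transcription factors of that lineage in the list were at or near 0. FOXA2, CDX2, GATA4 and ONECUT1 had 0 counts in all 4 samples, and HNF4A had 1 count in all. GATA6 showed a log2 fold change of 0.24 (adjusted p = 0.811) and ONECUT2 of −0.01 (adjusted p = 0.991). Omitting a single sample gave medians of 1.02 to 1.31 on the log2 scale for the gut and liver list. FABP6 was not removed from the list for these fits, and medians without it were not computed there. Because the list was assembled with the results known, these medians are no independent evidence either.

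Genes near the detection floor in the controls were counted separately. With siNTC at 3 counts or fewer in all and siEHMT1 at 20 or more, 19 genes were higher, whereas 0 genes met the mirrored rule. The siEHMT1 libraries held 21891026 counts and the siNTC libraries 15458143, and the part of depth in this was not tested. This rule and the genes named here were chosen after the values were seen. FABP6, an ileal bile acid binding protein, had 1 and 0 counts in the controls and 16 and 13 after silencing, a depth-scaled ratio of 20.5 (95% exact interval from counting 3.40 to 838.2). KRT20, an intestinal keratin, and HAO2, a peroxisomal hydroxyacid oxidase, each had 1 and 0 counts and then 9 and 13, a ratio of 15.6 (2.52 to 642.5), and PCA3, the prostate noncoding RNA, had 1 and 0 and then 9 and 17, a ratio of 18.4 (3.02 to 754.3).

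The UGT2B enzymes attach glucuronic acid to steroids, and UGT2B15 and UGT2B17 are the main forms that clear androgens in prostate cells. Of 7 genes, UGT2B7 was too low to test and UGT2B4 passed the filter only through the siEHMT1 samples. Of the other 5, 1 rose (UGT2B28, beside 0.0619% of all genes tested) and 3 were higher at an unadjusted p under 0.05, beside 4.46%. UGT2B4 had 4 and 2 counts in the controls and 26 and 27 after silencing (log2 fold change 2.61, adjusted p = 0.0741), UGT2B10 68 and 49 and then 126 and 169 (0.76, adjusted p = 0.215), and UGT2B11 691 and 389 and then 935 and 1193 (0.44, adjusted p = 0.104). UGT2B17, with 780 and 402 counts and then 733 and 1020, showed a log2 fold change of 0.05, and UGT2B15, with 933 and 470 and then 927 and 1177, of 0.08. The main androgen-clearing forms thus had the smallest values of the family. The genes are near copies of each other, so reads could be split among them.

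Laminin chains form the basement membrane and keratins the filaments of epithelial cells. Of 7 laminin genes tested, LAMB3 rose, beside 0.0619% of all genes tested. LAMA1 (107 and 52 counts, then 181 and 216, log2 fold change 0.83, adjusted p = 0.0740) and LAMA3 (log2 fold change 0.36, adjusted p = 0.188) were also higher at an unadjusted p under 0.05. LAMB1 was lower at that level, at 47 and 37 counts and then 25 and 41 (log2 fold change −0.93, adjusted p = 0.319). Over all genes tested, 4.46% were higher and 5.09% lower. The most counted chain, LAMC1, showed a log2 fold change of −0.11. The median of the list was 0.03, but 0.27 without the first siEHMT1 sample and −0.26 without the second. KRT19, a simple-epithelial keratin, had 45 and 29 counts and then 97 and 136 (log2 fold change 1.11, adjusted p = 0.0741), while the luminal keratins KRT8 and KRT18 had values of 0.06 and 0.16.

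**Figure D4:**
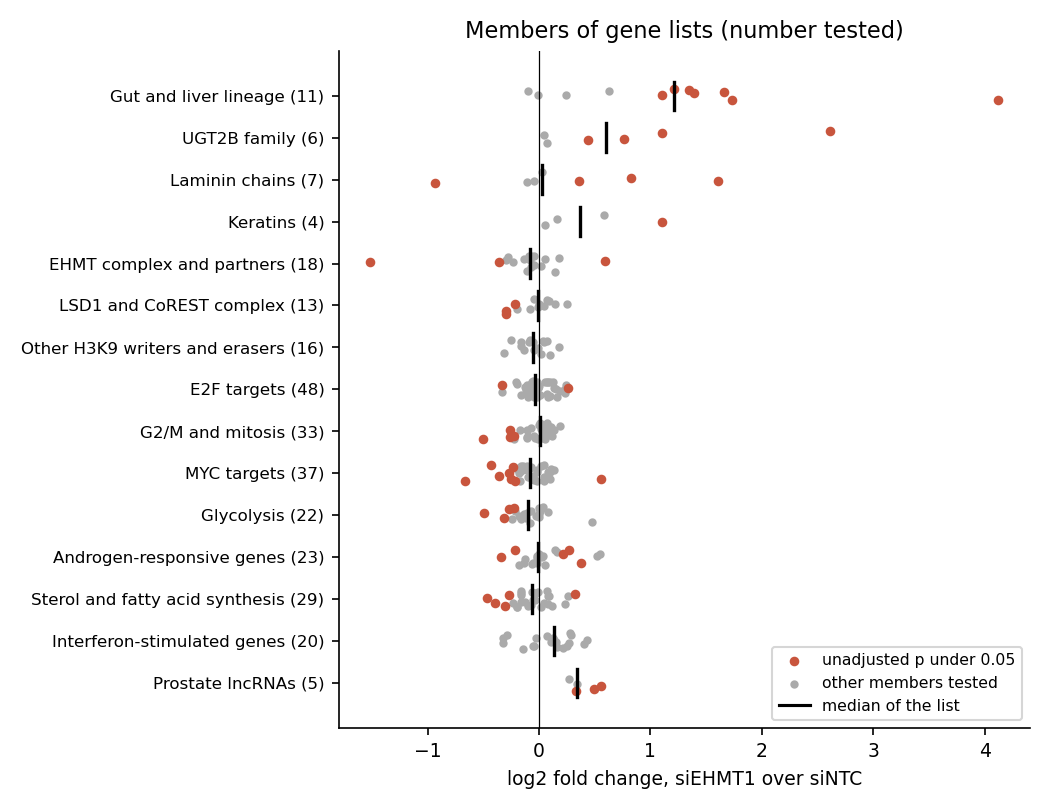
Log2 fold change, siEHMT1 over siNTC (horizontal), of the tested members of 15 gene lists (vertical, number tested in brackets), with members at an unadjusted p under 0.05 in red and a black bar at the median. The gut and liver list and the UGT2B family have medians of 1.21 and 0.60, each with 1 member that passed the filter only through siEHMT1 (1.16 and 0.44 without it), while the E2F, mitosis, MYC, glycolysis and androgen-responsive lists have medians between −0.10 and 0.01.

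The zinc-finger genes with a numbered ZNF symbol, many of which encode DNA-binding repressors with a KRAB domain, were lower more often than higher. Of 420 tested, 1 fell (ZNF850), 59 were lower and 10 higher at an unadjusted p under 0.05. Those on chromosome 19, where the family lies in clusters, accounted for most: 44 of 212 were lower (20.8%, beside 5.09% of all genes tested) and 3 higher, with a median log2 fold change of −0.12. Of the 208 on other chromosomes, 15 were lower (7.21%) and the median was −0.02, and of the 772 other genes of chromosome 19, 32 were lower (4.15%).

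ZNF480 had 447 and 255 counts in the controls and 314 and 378 after silencing (log2 fold change −0.55, adjusted p = 0.0918), ZNF816 120 and 64 and then 57 and 90 (−0.86, adjusted p = 0.150), and ZNF28 395 and 228 and then 253 and 387 (−0.52, adjusted p = 0.158). ZNF107, on chromosome 7, had 230 and 166 counts and then 141 and 191 (−0.85, adjusted p = 0.0642). With each sample left out in turn, 26 to 39 of the chromosome 19 genes were lower at that level; the smallest count, 12.3% beside 2.95% of all genes, was without the second siNTC sample. These genes resemble each other in sequence, so their counts are not independent of each other.

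Genes of ribosomal proteins were mostly higher. Of 77 tested, 66 had a positive and 11 a negative log2 fold change, 14 were higher at an unadjusted p under 0.05 and RPS16 was the only one lower. Over all genes tested, 49.6% were positive, 4.46% higher and 5.09% lower at that level. The median was 0.11. RPL26 showed a log2 fold change of 0.32 (adjusted p = 0.199), RPS18 of 0.27 (adjusted p = 0.274) and RPL11 of 0.27 (adjusted p = 0.319). With any single sample left out, 63 to 65 members were positive and the median was 0.08 to 0.13. How many passed an unadjusted p of 0.05 depended strongly on which samples were kept.

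Genes of proliferation and growth, on which the E2F and MYC factors act, gave no adjusted call. Of 48 E2F targets 0 passed an adjusted p of 0.05, TIMELESS was lower and ASF1B higher at an unadjusted p under 0.05, and the median was −0.03. E2F1 itself was at 62.3 and 59.3 CPM with siNTC and at 68.1 and 60.0 CPM with siEHMT1, overlapping between the groups. Of 33 mitotic genes, CENPF, CENPE, DLGAP5 and TOP2A were lower and 0 higher at that level, beside 5.09% and 4.46% of all genes tested. In the mitotic list 18 members had a positive and 15 a negative value, and the median was 0.01. CENPE, the kinetochore kinesin, showed a log2 fold change of −0.50 (adjusted p = 0.192) and TOP2A, the mitotic topoisomerase, of −0.26 (adjusted p = 0.345).

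MYC was at 401.1 and 373.7 CPM with siNTC and at 325.5 and 313.9 CPM with siEHMT1, with no overlap but no adjusted call (log2 fold change −0.28, SE 0.09, adjusted p = 0.270). Of 37 MYC targets, 27 had a negative value, beside 7326 of the 14532 genes tested. At an unadjusted p under 0.05, 7 of the targets were lower and 1 higher, beside 5.09% and 4.46% of all genes tested. The median of the list was −0.08. HSPE1, a mitochondrial chaperonin, had 311 and 204 counts in the controls and 219 and 263 after silencing (log2 fold change −0.66, adjusted p = 0.0919), and NCL, nucleolin of ribosome assembly, showed a log2 fold change of −0.43 (adjusted p = 0.150). EIF4A1 was the member that was higher, at 0.55 (adjusted p = 0.417).

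Glycolytic genes were lower in 4 of 22 and higher in 0 at an unadjusted p under 0.05 (5.09% and 4.46% of all genes tested), with ENO2 the largest in size. The count was 2 to 4 with each sample left out. ENO2, the enolase also used as a neuroendocrine marker, was at 29.4 and 34.8 CPM with siNTC and at 23.2 and 22.4 CPM with siEHMT1 (log2 fold change −0.49, SE 0.14, adjusted p = 0.200). Of 29 genes of sterol and fatty acid synthesis, MSMO1, STARD4, SCD and FASN were lower and MVK higher at that level, against the same shares. FASN, the fatty acid synthase, was at 2016 and 1650 CPM with siNTC and at 1072 and 1711 CPM with siEHMT1 (log2 fold change −0.40, adjusted p = 0.409), so the groups overlapped.

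The genes listed here as responsive to androgens gave no adjusted call. Of 23 responsive genes, ACPP, MAF and TMPRSS2 were higher and ZBTB10 and ABCC4 lower at an unadjusted p under 0.05 (4.46% and 5.09% of all genes tested), and the median was −0.0059. TMPRSS2, an androgen-regulated protease, was at 448.0 and 465.2 CPM with siNTC and at 548.6 and 549.2 CPM with siEHMT1 (log2 fold change 0.27, SE 0.09, adjusted p = 0.284). KLK3, which encodes PSA, showed a log2 fold change of −0.02 and FOXA1, a pioneer factor, of −0.08. CREB3L4, a prostate transcription factor of the secretory pathway, showed a log2 fold change of 0.40 (adjusted p = 0.142).

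REST, a repressor of neuronal genes that works with LSD1 and CoREST, had 794 and 403 counts in the controls and 593 and 803 after silencing (log2 fold change −0.29, adjusted p = 0.319). LSD1, encoded by KDM1A, showed a log2 fold change of −0.08 (adjusted p = 0.822). Of 15 neuronal genes under REST only 4 passed the filter, and 0 had an unadjusted p under 0.05. Of 16 germline genes 4 were tested, again with 0 at that level, and of 20 interferon-stimulated genes tested 0 had an unadjusted p under 0.05 in either direction.

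The nuclear noncoding RNAs MALAT1 and NEAT1 separated the second siEHMT1 sample from the other 3. MALAT1 had 8307 and 4876 counts in the controls and 7550 and 20885 after silencing, and NEAT1 had 2363 and 1512 and then 2464 and 6394. Their log2 fold changes were 0.49 (adjusted p = 0.432) and 0.56 (adjusted p = 0.319). List medians also depended on that sample. The median of 45 tested snoRNAs was 0.39, and 0.06 over 49 tested without that sample. The median of the 5 tested prostate noncoding RNAs went from 0.34 to −0.02 without it. Between the first siEHMT1 and the first siNTC sample alone, the median was 0.21 for the snoRNAs and 0.20 for the prostate noncoding RNAs.

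Induction of EHMT1 is the opposite manipulation, and it was set beside silencing in the genes called above. Columns of a condition in the stable lines agreed within sampling noise and were summed, which left 8 libraries. The fit took the 4 lines as replicates, although they carry different forms of EHMT1. The Dox effect is therefore an average over WT and mutant forms and not the effect of a single form. EHMT1 was at 71.7 to 88.9 CPM with Veh and at 662.5 to 842.1 CPM with Dox, a sum of the endogenous gene and the transgene. The experiments also differ in cell line derivation, and the effects of doxycycline itself and of EHMT1 cannot be told apart in the stable lines. Over the 4 lines, 85 genes rose with Dox (0.603% of 14105 tested) and 213 fell (1.51%) at an adjusted p under 0.05.

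None of the 17 other genes called in the siRNA comparison that could be tested in the stable lines had an adjusted p under 0.05 with Dox. At that level 0.603% of all genes tested there rose and 1.51% fell. At an unadjusted p under 0.05, 967 genes were higher and 1065 lower, with BRI3BP among the higher and RPS16 (log2 fold change −0.18) among the lower. The Dox changes of the 17 genes lay between −0.39 and 0.28 on the log2 scale. Of the 8 that rose with siEHMT1, 4 were positive and 4 negative, and of the 9 that fell, 3 were positive and 6 negative. Of 13617 genes tested in both experiments, 7015 were positive with Dox and 6602 negative. OR51E1 did not pass the filter there, with 0 to 2 counts in 7 of 8 libraries and 15 in the K451R line with Dox. BRI3BP had the smallest adjusted p with Dox, at 0.28 on the log2 scale (adjusted p = 0.106), beside −0.63 with siEHMT1. Its value per line ran from −0.10 in WT to 0.72 in K450R and was positive in 3 of the 4 lines. UGT2B28 ran from −0.67 in WT to 0.80 in K450R and was also positive in 3.

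**Figure D5:**
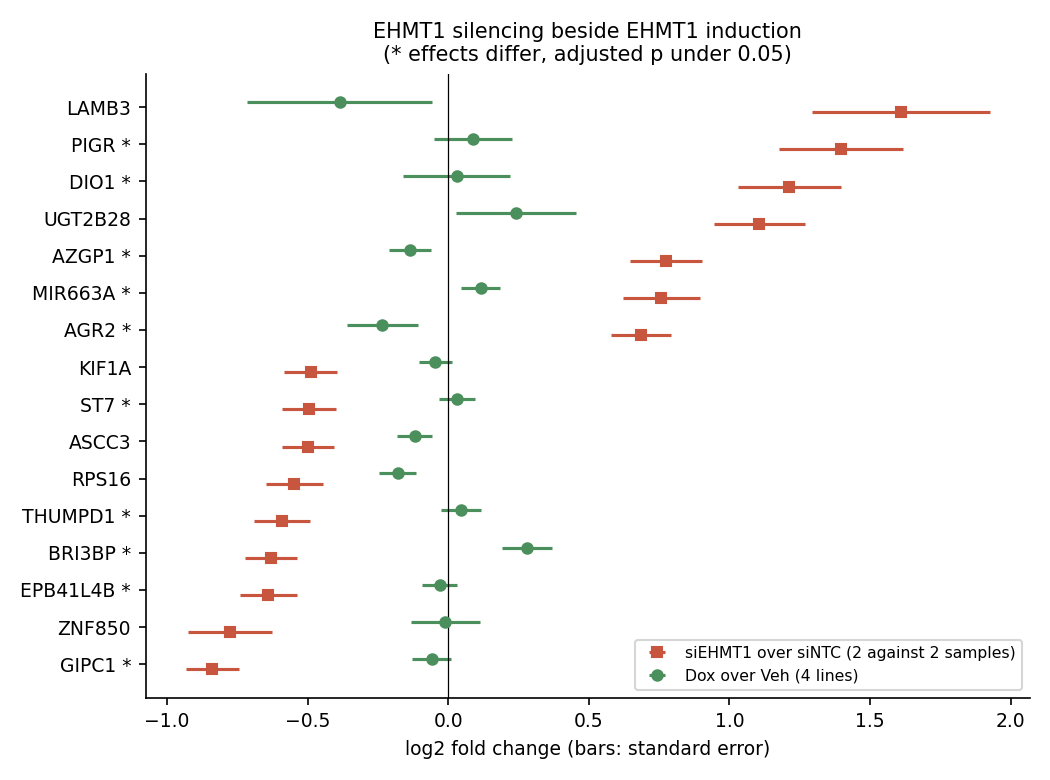
Log2 fold change (horizontal, bars are standard errors) of 16 genes called in the siRNA comparison, for siEHMT1 over siNTC as squares and for Dox over Veh across the 4 stable lines as circles, with an asterisk where the effects differ at an adjusted p under 0.05. The circles lie between −0.39 and 0.28, whereas the squares lie at −0.49 or below or at 0.69 or above.

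The difference between the silencing effect and the Dox effect was tested in a single fit of both experiments, in which 73 genes had a silencing effect above the Dox effect (0.469% of 15576 tested) and 46 below it (0.295%). Of the 18 genes called besides EHMT1, 11 were among them, including DIO1, PIGR, AGR2, AZGP1 and MIR663A above, and GIPC1, BRI3BP, EPB41L4B, THUMPD1 and ST7 below. The 18 genes were chosen by their silencing effect, which is also one side of this difference, so the count is a description and not independent evidence of a difference. The difference was 1.33 for PIGR (SE 0.26, adjusted p = 0.0105) and −0.77 for GIPC1 (SE 0.12, adjusted p = 0.00153). For UGT2B28 (0.88, adjusted p = 0.177) and OR51E1 (1.70, SE 0.98, adjusted p = 0.497) it did not pass. With each line left out in turn, 7 to 12 of the 18 passed, and 7 was the count without the K451R line.

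Among the genes the study names, MYC and FOXA1 passed this test. MYC rose with Dox in all 4 lines (log2 fold change 0.46, adjusted p = 3.6e-05) and its value with siEHMT1 was −0.28, and the difference of −0.73 (SE 0.11) had an adjusted p of 0.000838. FOXA1 also rose with Dox (0.36, adjusted p = 0.000418), and its difference was −0.42 (adjusted p = 0.0423). ENO2 fell with Dox (−0.39, adjusted p = 4.01e-05) and was at −0.49 with siEHMT1, so the values had the same sign and their difference was −0.09 (adjusted p = 0.823). TMPRSS2 likewise rose with Dox (0.22, adjusted p = 0.0177) beside 0.27 with siEHMT1, with a difference of 0.05 (adjusted p = 0.878). Outside the genes the study names, MALAT1 fell by 0.92 on the log2 scale with Dox (adjusted p = 5.29e-09) and NEAT1 by 1.55 (adjusted p = 4.42e-08). The fall was smallest in the double mutant, at −0.45 for MALAT1 and −0.44 for NEAT1, beside −1.14 and −2.14 in WT. With siEHMT1 neither was called, and their higher values lay in the second siEHMT1 sample.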

How the data were processed

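RNA was sequenced single-end from LNCaP cells treated with siRNA and from stable LNCaP lines. Per the labels, the authors deposited raw counts of reads per gene on hg19. The submitters' processing notes name FastQC 0.11.9, STAR 2.7.2 and featureCounts 1.6.4; the strand setting and the annotation release are not given in the sources used here. Gene positions and types came from a GRCh37 annotation that held 55538 of the 57773 identifiers, and 0 count columns were left unmatched to a sample.

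The 2 siEHMT1 and 2 siNTC samples were fitted with edgeR 4.0.16 (R 4.3.3) after filterByExpr and TMM normalization, with the quasi-likelihood test and Benjamini-Hochberg adjustment over all genes tested. The total counts per sample were 5593400 to 12438006. The samples of a group differed by more than counting error (chi-square over its degrees of freedom was 61.6 in the controls and 13.4 in the silenced pair; leaving out rRNA-like rows gave 6.58 and 6.17). Columns of a stable-line condition agreed within sampling noise and were summed, and line was a term in their fit. Same-numbered siRNA samples did not deviate together (Pearson correlation of deviations −0.0052), and no pairing was used. DESeq2 1.42.0, limma 3.58.1 and other normalizations, filters and left-out samples were the alternatives. The scripts were tested on simulated counts.

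Named genes were EHMT1, EHMT2 and those the study names, all genes with an adjusted p under 0.05 and a mean count of at least 10, the 10 largest changes in each direction past the 2-fold cutoff with a mean count of at least 20 and no overlap, list members with an unadjusted p under 0.05 or among the most expressed, and rows over 0.5% of counts. Some genes that meet it are not reported here. Genes outside this rule were chosen after their values were seen. The comparison and the gene lists were chosen with earlier results of these data known. Promoter sequences are from RefSeq (GRCh38.p14), and figures were drawn with matplotlib 3.10.9 in Python 3.11.15.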

Additional observations from a re-analysis of the deposited data

How the results depend on the processing

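Across the alternatives, 11 of the 19 called genes kept an adjusted p under 0.05 wherever a value was given, and EHMT1 lay between −1.55 and −1.48 on the log2 scale with each sample left out. With DESeq2, 2 genes rose, and 46 were higher and 19 lower past the 2-fold cutoff; its independent filtering gave 7 of the 19 genes, OR51E1 among them, no adjusted p. Without that filtering, a setting chosen after seeing the data, 7 rose and 7 fell, and the cutoff again gave 46 and 19. The number that fell was 6 with limma-voom, 5 with upper-quartile normalization and 4 with no filter on low counts, which tested more genes and gave 288 higher and 137 lower. With the replicate block, 56 rose and 62 fell, but the siRNA samples share only a number. With a single sample left out, 20 to 41 genes rose, 18 to 82 fell, 109 to 330 were higher and 38 to 186 lower past the cutoff, and genes lower made up 52% of the cutoff calls without the second siEHMT1 sample and 25.9% without the second siNTC sample, beside 31.7% with all samples. With a stable line left out, 20 to 181 genes rose and 94 to 320 fell with Dox, 0 to 1 of the 18 genes was called with Dox and 7 to 12 differed between the experiments. The cause of these changes was not tested. With a sample left out, log2 values that were not called changed sign for E2F1 (−0.0227 to 0.164), MCM7 (−0.0314 to 0.173), PPP1R14C (−0.403 to 0.205, also 0.0576), LIPT2 (−0.379 to 0.282), FRMPD2 (−0.176 to 0.0976, also 0.0677), SETD2 (−0.228 to 0.144, also 0.0382) and CHD1 (−0.194 to 0.0373). Depth limits genes under about 20 counts, where most of the cutoff calls lie.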
